A study of Homo sapiens with 40 samples.

Results

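The genes described here are the 8 human SMADs measured on the arrays (SMAD1, SMAD2, SMAD3, SMAD4, SMAD5, SMAD6, SMAD7 and SMAD9) and the TGF-beta receptors TGFBR1 and TGFBR2, 10 of 19775 genes in all. They were chosen by name, through the probe sets whose only annotated symbol is one of them. There were 35 such probe sets, and each gene was represented by the one with the highest mean on the log2 scale over 40 arrays. On the linear scale another probe set had the highest mean for SMAD1 and SMAD2, and its values are given with those genes. Of the 10 genes, 9 passed the filter on dim genes and were tested, among 15211 genes tested; SMAD6 did not pass.

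RNA came from 10 cell lines, all long established from diffuse large B-cell lymphoma, a tumour of mature B cells. Each line received 500 nM GSK126 in 0.1% DMSO, or 0.1% DMSO alone (vehicle), for 72 h, and each line and treatment has 2 arrays. GSK126 is a small molecule that blocks the methyltransferase EZH2, which places the repressive mark H3K27me3. The labels give EZH2 as mutant in Pfeiffer, with a growth IC50 for GSK126 of 28 nM, WSU-DLCL2 (134 nM), KARPAS-422 (232 nM), SU-DHL-10 (448 nM), SU-DHL-6 (582 nM), DB (861 nM) and SU-DHL-4 (4828 nM). They give it as wild type in HT (516 nM), OCI-LY-19 (1019 nM) and Toledo (13786 nM). No allele is named in the labels, each line stems from a tumour of its own, and a difference between genotypes is therefore a difference between 7 lines and 3 other lines. By their titles, arrays of the same group are biological replicates, but nothing tells whether the cells were grown apart, and p-values within a line measure only the spread between such arrays, which may be technical.

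TGF-beta ligands assemble a type II receptor, such as TGFBR2, with a type I receptor, such as TGFBR1, and the activated type I receptor phosphorylates the receptor SMADs. SMAD2 and SMAD3 serve TGF-beta and activin signals, and SMAD1, SMAD5 and SMAD9 serve the bone morphogenetic proteins (BMPs). Either kind joins SMAD4, the common partner, and enters the nucleus, while SMAD6 and SMAD7 inhibit the route. In B cells TGF-beta is known as a brake on growth and as a signal for the switch to IgA. Genes that EZH2 silences usually have a promoter rich in CG pairs.

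The first-listed promoter windows of the 2 genes with the largest changes under GSK126 are shown here, because the CG content of promoters bears on EZH2. All 10 genes matched the RefSeq promoter table of build GRCh38.p14, with 29 windows of 250 bases before a listed start. The first-listed start of each gene is printed, on the + strand, with CG pairs in capitals. The TGFBR1 window is chr9:99104863-99105112 and the SMAD1 window is chr4:145481056-145481305.
TGFBR1: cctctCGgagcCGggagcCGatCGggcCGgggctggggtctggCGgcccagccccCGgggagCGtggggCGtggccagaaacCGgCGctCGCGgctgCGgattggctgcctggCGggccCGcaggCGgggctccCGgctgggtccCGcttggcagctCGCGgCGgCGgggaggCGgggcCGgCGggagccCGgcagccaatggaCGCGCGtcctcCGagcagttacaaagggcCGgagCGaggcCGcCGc
SMAD1: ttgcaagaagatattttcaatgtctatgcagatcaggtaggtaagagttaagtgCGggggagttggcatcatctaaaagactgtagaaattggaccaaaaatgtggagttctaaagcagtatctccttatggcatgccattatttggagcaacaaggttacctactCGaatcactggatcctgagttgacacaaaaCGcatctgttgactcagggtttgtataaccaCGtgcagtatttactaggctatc
The TGFBR1 window holds 35 CG pairs, a number that 5.80% of the 35116 windows in the table reach. The SMAD1 window holds 4, which 70.7% of windows reach, and the median window holds 11. Both genes have other listed starts: the 8 windows of TGFBR1 hold 0 to 42 CG pairs, 4 of them no more than 7, and the other 4 windows of SMAD1 hold 16 to 37, above the median. The contrast between the printed windows therefore rests on which start is listed first. The first-listed windows of SMAD2 and SMAD3 hold 36 CG pairs each and that of SMAD9 holds 39, more than that of TGFBR1. Those of SMAD4 and SMAD6 hold 25, SMAD5 26, SMAD7 13 and TGFBR2 7. A link between CG pairs and the change under GSK126 was not tested. The palindrome GTCTAGAC, known as a site that SMAD3 and SMAD4 bind, was searched on both strands and occurs in 0.182% of windows. Among the 10 genes it was found for SMAD6 alone, at chr15:66702206-66702235 on the + strand, printed with the palindrome in capitals.
SMAD6: ccgcggagccgccaaagtGTCTAGACtggc

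Array signals were MAS5 values, scaled by the authors to 1 target on every array, with array medians between 58.9 and 88.7. Over tested genes, replicate arrays correlated at 0.982 to 0.989, a vehicle and a treated array of 1 line at 0.968 to 0.987, and lines with each other at 0.808 to 0.947. All 40 arrays correlated best with an array of their own line. All 6 B-cell markers looked at (MS4A1, CD79A, CD79B, PAX5, CD22 and BLNK) lay above the array median on at least 20 arrays, with MS4A1 below it in 1 line. Of 4 myeloid markers, CD14 lay above the median on 0 arrays, FCGR3B on 1, LYZ on 2 and CSF1R on 11, and their summed signal was 40 to 259 in vehicle arrays and 66.4 to 240.0 under GSK126. Some lines carried high signals of single markers of other lineages in both treatments: CD3D and CD8A (T cells) and EPCAM (epithelial cells) lay above the array median in 1 line each under vehicle, and DCN (stromal cells) reached 21100. CD3E (T cells) lay above the median on 36 arrays, KRT8 (epithelial cells) on 34 and PECAM1 (endothelial cells) on 40, with signals of at most 245, 162 and 297. HBB (erythroid cells) did so on 39, with at most 248. The other markers of these lists were mostly dim. COL3A1 and LUM (stromal), KRT19 and CDH1 (epithelial) and CDH5 (endothelial) lay above the median on 0 arrays. CD2 (T cells) did so on 1, VWF (endothelial) on 2 and COL1A2 (stromal) on 14. Summed marker signals ran from 70.4 to 13200 under vehicle and from 146 to 15900 under GSK126 for T cells, from 158 to 15200 and from 184 to 21100 for stromal cells, from 79 to 12700 and from 106 to 9560 for epithelial cells, and from 129 to 305 and from 141 to 385 for endothelial cells. Their part in the results below was not tested.

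Of 90 tests of a gene in a line, 17 rose and 5 fell at an adjusted p under 0.05 (limma with Benjamini-Hochberg adjustment over all genes tested), or 18.9% and 5.56%, against 7.55% and 5.13% of the tests of all genes. These genes and the pathway lists below were chosen with earlier results of these data known. Whether that choice raised their shares was not tested. TGFBR1 made 7 of the 17 rises; without it 12.5% of 80 tests rose. All but 1 of these calls lay in the 6 lines with the lowest growth IC50. In Pfeiffer 4 of 9 genes rose and 1 fell, where 14.6% and 9.93% of all genes did. In WSU-DLCL2 2 rose and 2 fell (13.9% and 12.7% of all genes). In KARPAS-422 3 rose and 1 fell (15.5% and 13.4%). SU-DHL-10 had 3 that rose and 1 that fell (11% and 7.16%), and SU-DHL-6 3 that rose and 0 that fell (7.42% and 3.56%). TGFBR1 was the 1 gene called in HT (6.31% of all genes rose and 3% fell) and the 1 gene called in OCI-LY-19 (1.97% and 0.44%), both wild type lines. By limma 0 of the 9 genes were called in DB (2.50% of all genes rose and 0.618% fell), SU-DHL-4 (2.14% and 0.454%) and Toledo (0.138% and 0.0263%); at an unadjusted p under 0.05 there were 2, 0 and 1. When arrays were brought to equal medians instead of the authors' scaling, 11 tests rose and 11 fell, since that scaling moves the median change over all genes by -0.14 to -0.23 (log2) in Toledo, Pfeiffer, KARPAS-422, SU-DHL-6, WSU-DLCL2 and SU-DHL-10. Fewer cells of a kind and less RNA per cell cannot be told apart in such bulk samples.

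TGFBR1 is the type I receptor for TGF-beta. With its chosen probe set it had a positive log2 fold change in all 10 lines and rose in 7 of them, including the wild type lines HT and OCI-LY-19. Only 101 genes, 0.664% of those tested, rose in at least 7 lines. All changes below are on the log2(signal + 17.72) scale, with a standard error of 0.12. In KARPAS-422 the signal was 448 and 464 under vehicle and 1449 and 1411 under GSK126, a change of 1.61 (3.06-fold, adjusted p = 9.38e-12). OCI-LY-19, the dimmest line, went from 80.9 and 121 to 251 and 277 (1.27, adjusted p = 2.10e-08). HT went from 694.5 and 755 to 1631 and 1606 (1.14, adjusted p = 1.02e-07). In these 3 lines every treated array exceeded every vehicle array. WSU-DLCL2 had signals of 941 and 783.5 under vehicle against 1690 and 1784 (1.00, adjusted p = 1.56e-07). Pfeiffer had 521 and 513 against 1068 and 997 (0.97, adjusted p = 2.51e-07). SU-DHL-6 had 856.5 and 891 against 1428 and 1612 (0.78, adjusted p = 2.56e-05). The groups did not overlap in these lines either. SU-DHL-10 showed the smallest called rise, from 1103 and 957 to 1493 and 1491 (0.53, adjusted p = 0.00139).

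**Figure D1:**
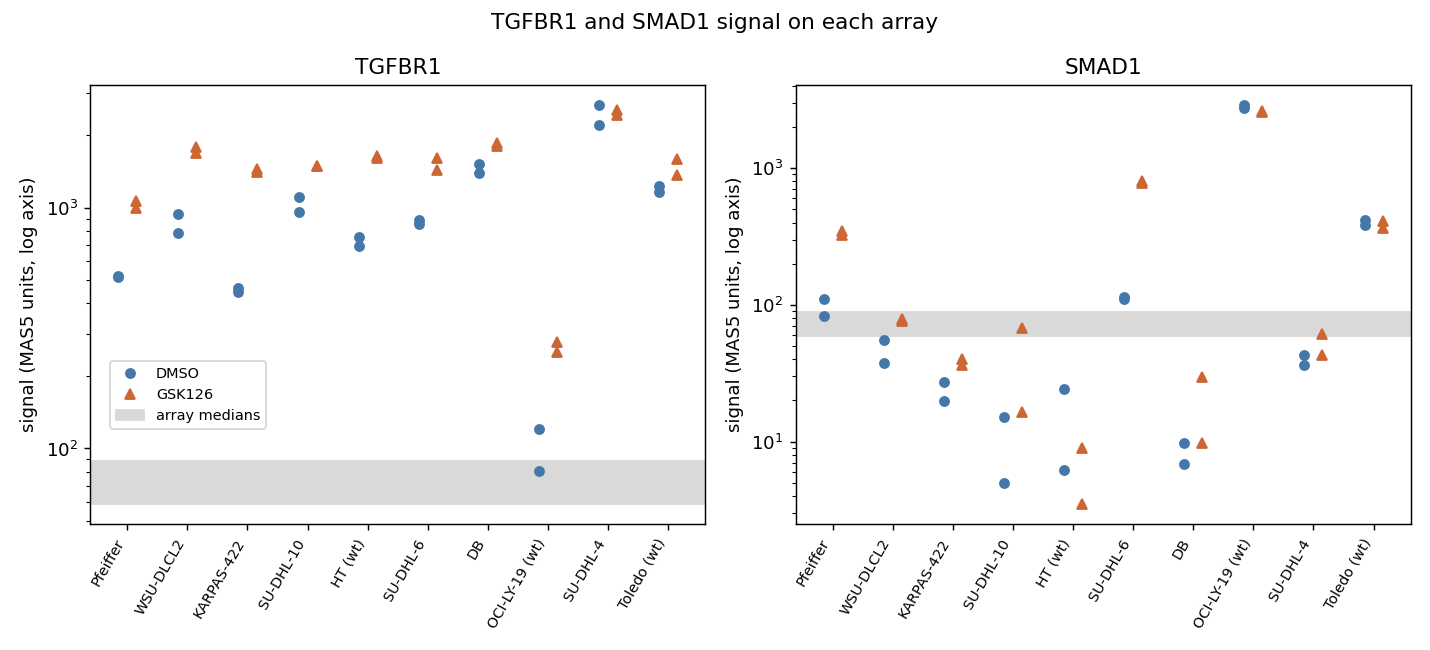
Signal of TGFBR1 (left) and SMAD1 (right) on each of the 40 arrays, in MAS5 units on a log axis, by cell line in order of growth IC50; wt marks wild type EZH2. Circles are DMSO arrays, triangles GSK126 arrays, and the grey band spans the array medians, 58.9 to 88.7. TGFBR1 is higher under GSK126 without overlap in 9 lines, while SMAD1 moves far above its vehicle arrays in Pfeiffer and SU-DHL-6 and has high vehicle arrays in OCI-LY-19 and Toledo.

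In the other 3 lines TGFBR1 was between 1156 and 2671 under vehicle. The vehicle arrays enter both the level and the change, and a link between them was not tested. DB went from 1392 and 1519 to 1810 and 1851 (0.33, adjusted p = 0.150), and Toledo from 1156 and 1229 to 1366 and 1590 (0.30, adjusted p = 0.526), both without overlap of the arrays. SU-DHL-4, with the highest vehicle level, had 2671 and 2213 against 2418 and 2547, a change of 0.03 with a 95% interval from -0.21 to 0.27 and overlapping arrays. The highest line mean was 24.2 times the lowest under vehicle and 9.40 times under GSK126. A further TGFBR1 probe set, 236561_at, rose in 6 lines, all of them among the 7. It was at 0.02 in OCI-LY-19, where its mean vehicle signal was 5.47, and at -0.16 in SU-DHL-4 and -0.07 in Toledo. The dimmer 206943_at rose in 0 lines and was at -0.17 in SU-DHL-10, -0.15 in SU-DHL-4 and -0.05 in Toledo. SU-DHL-10 was no longer called with equal medians (0.28, adjusted p = 0.144) or with the mean of all TGFBR1 probe sets (0.39, adjusted p = 0.177), and OCI-LY-19 was not called with that mean (0.58, adjusted p = 0.147) or when fitted alone (adjusted p = 0.0857).

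TGFBR2, the type II receptor, rose in 2 lines, both of which also had a rise of TGFBR1. In Pfeiffer its signal went from 215 and 189 to 346 and 332, a log2 change of 0.70 ± 0.13 (SE, adjusted p = 1.40e-04). In WSU-DLCL2 it went from 1060 and 1077 to 1422 and 1353 (0.37 ± 0.13, adjusted p = 0.0320). Neither pair of groups overlapped. KARPAS-422, where TGFBR1 rose most, had TGFBR2 at 56.9 and 69.2 under vehicle and at 42.4 and 59.5 under GSK126 (-0.24, adjusted p = 0.176), with overlapping arrays near the array median. The other 7 lines lay between -0.15 and 0.18. The WSU-DLCL2 call was lost with equal medians (0.12, adjusted p = 0.581) and when any 1 of its arrays was left out (adjusted p between 0.0819 and 0.159). With the mean of both TGFBR2 probe sets neither line was called (0.32, adjusted p = 0.239 in Pfeiffer), and KARPAS-422 was called as fallen with equal medians (-0.39, adjusted p = 0.0291) and with quantile normalization (-0.37, adjusted p = 0.0232).

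Among the SMADs of the BMP branch, SMAD1 changed most. In SU-DHL-6 it rose from 114 and 111 to 811 and 784, by 2.65 ± 0.32 on the log2 scale (6.26-fold, adjusted p = 1.08e-06). In Pfeiffer it rose from 82.4 and 111 to 324 and 349 (1.64 ± 0.32, adjusted p = 2.45e-04). The arrays of both lines did not overlap, and the vehicle levels lay near or just above the array medians. SU-DHL-10 was called too, from 15 and 5.01 to 16.4 and 67.4 (0.98 ± 0.32, adjusted p = 0.0294), but all 4 arrays lay below their array median and 1 array carries most of the change. Without that array the change was 0.32 (adjusted p = 0.583). The SU-DHL-10 call was also lost without the second vehicle array (0.72, adjusted p = 0.236), with equal medians (adjusted p = 0.0517), with quantile normalization (adjusted p = 0.0663) and when the line was fitted alone (adjusted p = 0.307). SMAD1 was positive in all 7 mutant lines, with values of 0.59 in WSU-DLCL2, 0.44 in KARPAS-422, 0.47 in DB and 0.27 in SU-DHL-4 that did not pass the test, and negative in the 3 wild type lines (-0.41 in HT, -0.13 in OCI-LY-19 and -0.04 in Toledo). The SMAD1 probe set 227798_at, the brightest on the linear scale, rose in SU-DHL-6 (2.60, adjusted p = 2.25e-08) and Pfeiffer (1.82, adjusted p = 2.06e-06). In KARPAS-422 it rose (1.33, adjusted p = 1.19e-04) from a mean vehicle signal of 2.48, near the floor, where the chosen probe set did not pass the test, and in SU-DHL-10 it was at -0.17. In WSU-DLCL2, OCI-LY-19 and Toledo it stood close to the chosen probe set, at 0.625, -0.16 and -0.10. It was farther from the chosen probe set in SU-DHL-4 (0.84, adjusted p = 0.0811), DB (0.20) and HT (-0.06). The chosen probe set lay below the array median on every array of WSU-DLCL2, KARPAS-422, SU-DHL-10, HT, DB and SU-DHL-4. The signs of SMAD1 in those lines therefore rest on dim signals.

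With its chosen probe set SMAD5, which shares its upstream receptors with SMAD1, moved in opposite directions in 2 lines. In KARPAS-422, where its vehicle level was lowest, it rose from 557 and 721 to 889.5 and 811 (0.41 ± 0.10, adjusted p = 0.00226). In WSU-DLCL2, where its vehicle level was highest, it fell from 3235 and 3291 to 2621 and 2553 (-0.33 ± 0.10, adjusted p = 0.0138). The groups were separate in both lines. A link between vehicle level and change was not tested. The other 8 lines lay between -0.06 and 0.27. The KARPAS-422 call was lost with equal medians (0.24, adjusted p = 0.101) and without the first vehicle array (0.23, adjusted p = 0.143). With the mean of all SMAD5 probe sets it was also lost (0.09, adjusted p = 0.532). The WSU-DLCL2 call was lost without either vehicle array (adjusted p = 0.0533 and 0.0735) and without the second treated array (adjusted p = 0.0864). The next brightest probe set, 225219_at, rose in KARPAS-422 (0.43, adjusted p = 0.00204), Pfeiffer (0.37, adjusted p = 0.00973) and HT (0.35, adjusted p = 0.0353). In WSU-DLCL2 it stood at -0.16 (adjusted p = 0.294). Probe sets 235451_at and 205188_s_at fell in WSU-DLCL2 (-0.39, adjusted p = 0.00278, and -0.80, adjusted p = 0.00344). They stood at -0.08 and -0.12 in KARPAS-422. Probe set 205187_at was called in 0 lines.

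SMAD9 was called in 0 lines by limma, and 2 lines had an unadjusted p under 0.05. In HT, where it was highest, it went from 2299 and 2249 to 3502 and 3275 (0.57 ± 0.22, adjusted p = 0.106). In WSU-DLCL2 it went from 870.1 and 962.5 to 1338 and 1332 (0.54 ± 0.22, adjusted p = 0.0680). Both pairs of groups were apart, and both lines were called with the mean of its probe sets (adjusted p = 0.00702 and 0.00533) and when each line was fitted alone (adjusted p = 0.00576 and 0.00353). The second probe set in that mean is dim, with a mean signal of 14.4. With equal medians the values were 0.50 (adjusted p = 0.178) in HT and 0.29 (adjusted p = 0.345) in WSU-DLCL2. The other 8 lines lay between -0.22 and 0.21.

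The SMADs of the TGF-beta branch went different ways. SMAD2 fell by about the same small amount in 3 mutant lines. Its signal went from 3377 and 3456 to 2790 and 2790 in WSU-DLCL2 (-0.29 ± 0.06, adjusted p = 9.65e-04). In KARPAS-422 it went from 5974 and 5959 to 4640 and 4982 (-0.31, adjusted p = 4.04e-04). In SU-DHL-10 it went from 2975 and 3194 to 2424 and 2576 (-0.30, adjusted p = 0.00104). Every treated array of these lines was below every vehicle array. The other 7 lines lay between -0.13 and 0.08. With the chosen probe set all 3 lines were also called as fallen with equal medians and with quantile normalization. Other SMAD2 probe sets gave fewer falls. Probe set 203077_s_at fell in WSU-DLCL2 (-0.28, adjusted p = 0.0173) and SU-DHL-10 (-0.35, adjusted p = 0.00564) but not in KARPAS-422 (-0.22, adjusted p = 0.0665). The dimmer 226563_at and 235598_at were called in 0 lines. In WSU-DLCL2, KARPAS-422 and SU-DHL-10 they stood at 0.11, 0.02 and -0.20, and at -0.36, -0.41 and -0.18. The SMAD2 probe set 203075_at, with the highest linear mean, fell in KARPAS-422 (-0.29, adjusted p = 0.00167) and SU-DHL-10 (-0.31, adjusted p = 0.00166) but stood at -0.09 in WSU-DLCL2 (adjusted p = 0.413), and WSU-DLCL2 was not called with the mean of all SMAD2 probe sets (-0.14, adjusted p = 0.204).

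SMAD3, the partner of SMAD2 that binds DNA directly, rose in 2 lines. In SU-DHL-6 it went from 178 and 223 to 366 and 402 (0.89 ± 0.23, adjusted p = 0.0100). In SU-DHL-10 it went from 218 and 285.5 to 469 and 407.5 (0.77 ± 0.23, adjusted p = 0.0171). HT, from 154 and 162 to 244 and 258, did not pass the test (0.61, adjusted p = 0.0980). The arrays did not overlap in any of the 3 lines. A second probe set of similar brightness, 205398_s_at, rose in SU-DHL-10 (1.27, adjusted p = 7.98e-06), SU-DHL-6 (0.96, adjusted p = 6.11e-04), HT (0.87, adjusted p = 0.00199) and Pfeiffer (0.86, adjusted p = 6.62e-04). The chosen probe set was at -0.15 in Pfeiffer. The SU-DHL-6 call was lost without the first vehicle array (adjusted p = 0.129), without the second treated array (adjusted p = 0.0797) and when the line was fitted alone (adjusted p = 0.0629). The SU-DHL-10 call was lost without the first vehicle or the first treated array (adjusted p = 0.195 and 0.133), with equal medians (adjusted p = 0.0742) and with a pseudocount of 1 (adjusted p = 0.0611).

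SMAD4, the partner of both branches, fell in Pfeiffer from 1216 and 1266 to 1004 and 940.2 (-0.35 ± 0.07, adjusted p = 6.75e-04). It rose slightly in KARPAS-422, from 1317 and 1413 to 1515 and 1651 (0.21 ± 0.07, adjusted p = 0.0304). Arrays were apart in both lines. The other 8 lines lay between -0.19 and 0.06. The rise in KARPAS-422 depended on the scaling, since it was 0.04 with equal medians (adjusted p = 0.801), and on single arrays, since it was not called without the first vehicle array (adjusted p = 0.227) or without the second treated array (adjusted p = 0.263). With equal medians SMAD4 was called as fallen in WSU-DLCL2 (-0.32, adjusted p = 0.00765) and SU-DHL-10 (-0.44, adjusted p = 6.25e-04) as well. The dimmer SMAD4 probe sets 1565703_at and 235725_at, above the array median on all 40 arrays, were called in 0 lines. They stood at 0.04 and -0.27 in Pfeiffer and at 0.09 and -0.04 in KARPAS-422. The mean of all SMAD4 probe sets rose in 0 lines and fell in 1.

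Of the inhibitory SMADs, SMAD7 rose in Pfeiffer, from 61.1 and 108 to 155 and 198.5 (0.96 ± 0.25, adjusted p = 0.00571). In WSU-DLCL2 it went the other way, from 445 and 592.5 to 359.9 and 277, without passing the test (-0.67 ± 0.25, adjusted p = 0.0504). SU-DHL-10 was similar (-0.60, adjusted p = 0.107), and HT had 35.4 and 23.2 against 58.6 and 61.9 (0.74, adjusted p = 0.0676). None of these groups overlapped. The Pfeiffer call was lost without the first vehicle array (0.62, adjusted p = 0.164), without the second treated array (0.79, adjusted p = 0.0804) and when the line was fitted alone (adjusted p = 0.0649). With equal medians WSU-DLCL2 (-0.91, adjusted p = 0.00589) and SU-DHL-10 (-0.84, adjusted p = 0.0131) were called as fallen. SMAD6 lay above the array median on 1 of 40 arrays, with signals from 5.61 to 115, and its untested differences ran from -0.97 in Pfeiffer to 1.14 in HT.

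**Figure D2:**
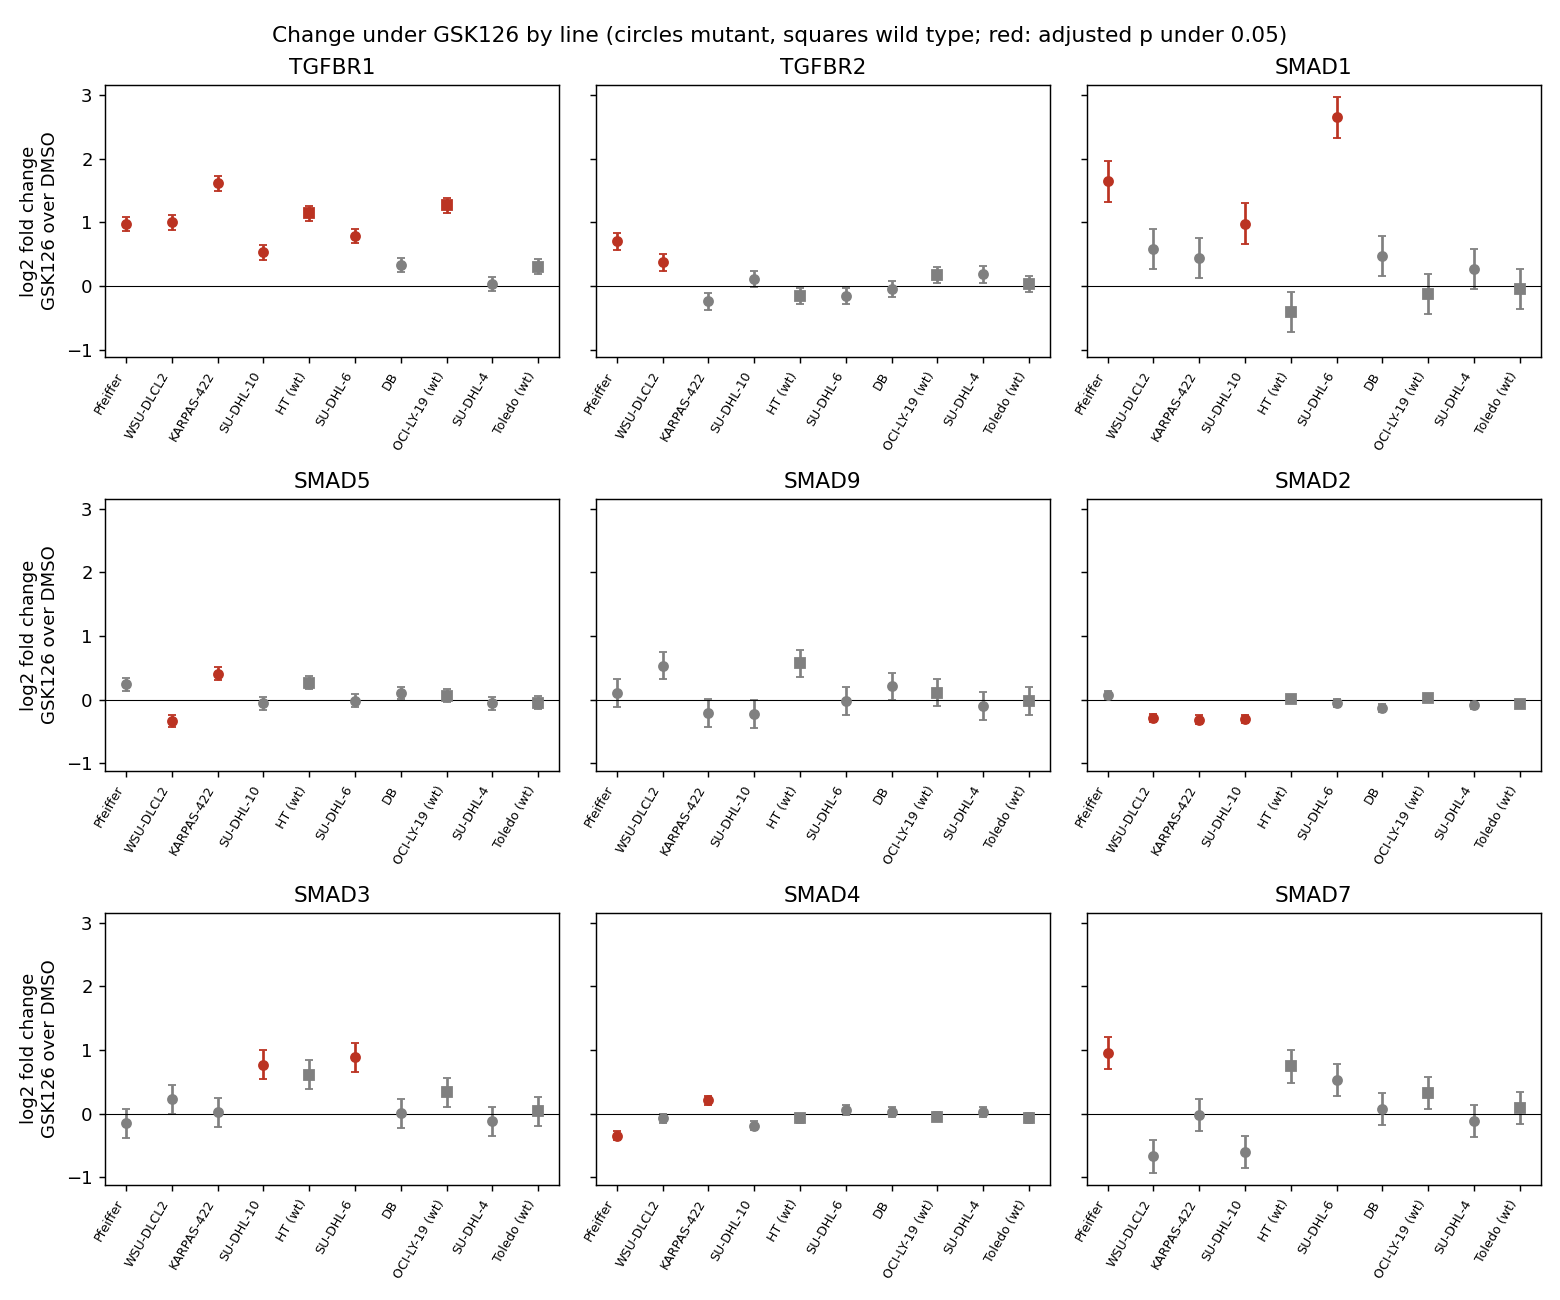
Log2 fold change of the 9 tested genes under GSK126 in each line, in order of growth IC50; circles are EZH2-mutant and squares wild type lines, bars are standard errors of the limma fit, and red marks an adjusted p under 0.05. TGFBR1 is red in 7 lines, SMAD1 and SMAD2 in 3 each, and SMAD9 in 0.

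The response differed between the 10 lines for 7 of the 9 genes by the interaction test of the same fit, where 38.8% of all genes did. The F value was highest for TGFBR1 (18.2, adjusted p = 9.91e-08) and SMAD1 (8.37, adjusted p = 7.73e-05). SMAD3 (adjusted p = 0.0539) and SMAD9 (adjusted p = 0.252) did not pass.

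Vehicle levels differed between lines for 9 of 9 genes, as they did for 84.6% of all genes, but the width of the differences set the genes apart. SMAD1 and SMAD7 were on in some lines and near the floor in others: their line means spanned 6.77 and 6.14 on the log2 scale, wider than 97.8% and 96.4% of all genes tested, whose median span was 1.59. SMAD4 and SMAD2 had the narrowest spans of the 9, 1.36 and 1.66 (2.57-fold and 3.16-fold), wider than 38.9% and 53.2% of genes. SMAD5 spanned 2.33, SMAD3 4.25, TGFBR1 4.39, TGFBR2 5.10 and SMAD9 5.24. SMAD4 and SMAD2, along with SMAD5, lay above the array median on all 40 arrays.

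OCI-LY-19 stood at an end of the order for 5 of the genes. It had the highest SMAD1 (2749 and 2902) and SMAD4 (3158 and 3265) and the lowest TGFBR1 (80.9 and 121), SMAD2 (1854 and 1907) and SMAD3 (42.5 and 21.0). Toledo was second for SMAD1 (382 and 416), and the third line, SU-DHL-6, had 111 and 114. SU-DHL-6 and Pfeiffer overlapped, as did WSU-DLCL2 with SU-DHL-4, and so did each neighbour from KARPAS-422 through HT and SU-DHL-10 to DB, all of them under 28. For TGFBR1 the order ran from SU-DHL-4, DB, Toledo, SU-DHL-10, SU-DHL-6, WSU-DLCL2, HT and Pfeiffer to KARPAS-422 and OCI-LY-19, and only SU-DHL-6 and WSU-DLCL2 overlapped. TGFBR2 was highest in Toledo (2791 and 2413), ahead of OCI-LY-19 (2174 and 2200), with SU-DHL-6 (1841 and 1882) after it. It was lowest in KARPAS-422 (56.9 and 69.2) and DB (45.5 and 74.6), which overlapped near the array median. SMAD3 was highest in SU-DHL-4 (920.7 and 880.4), WSU-DLCL2 (828 and 849) and DB (720 and 799), where KARPAS-422 (607 and 812) overlapped DB.

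SMAD7 was highest in Toledo (1638 and 1377) and lowest in DB (5.98 and 1.80), and the next lines below Toledo, WSU-DLCL2 and OCI-LY-19, overlapped. SMAD9 was highest in HT (2299 and 2249), followed by WSU-DLCL2 (870.1 and 962.5). Toledo, OCI-LY-19, SU-DHL-4 and SU-DHL-6 followed between 148 and 202, each overlapping the next. SMAD5 ranged from WSU-DLCL2 (3235 and 3291) to KARPAS-422 (557 and 721), and SMAD2 was highest in KARPAS-422 (5974 and 5959). These orders differ from gene to gene: KARPAS-422 was at the top for SMAD2 and at or near the bottom for SMAD5, TGFBR1 and TGFBR2. SMAD6 was dim in every line, and 7 of its 9 neighbouring pairs overlapped.

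**Figure D3:**
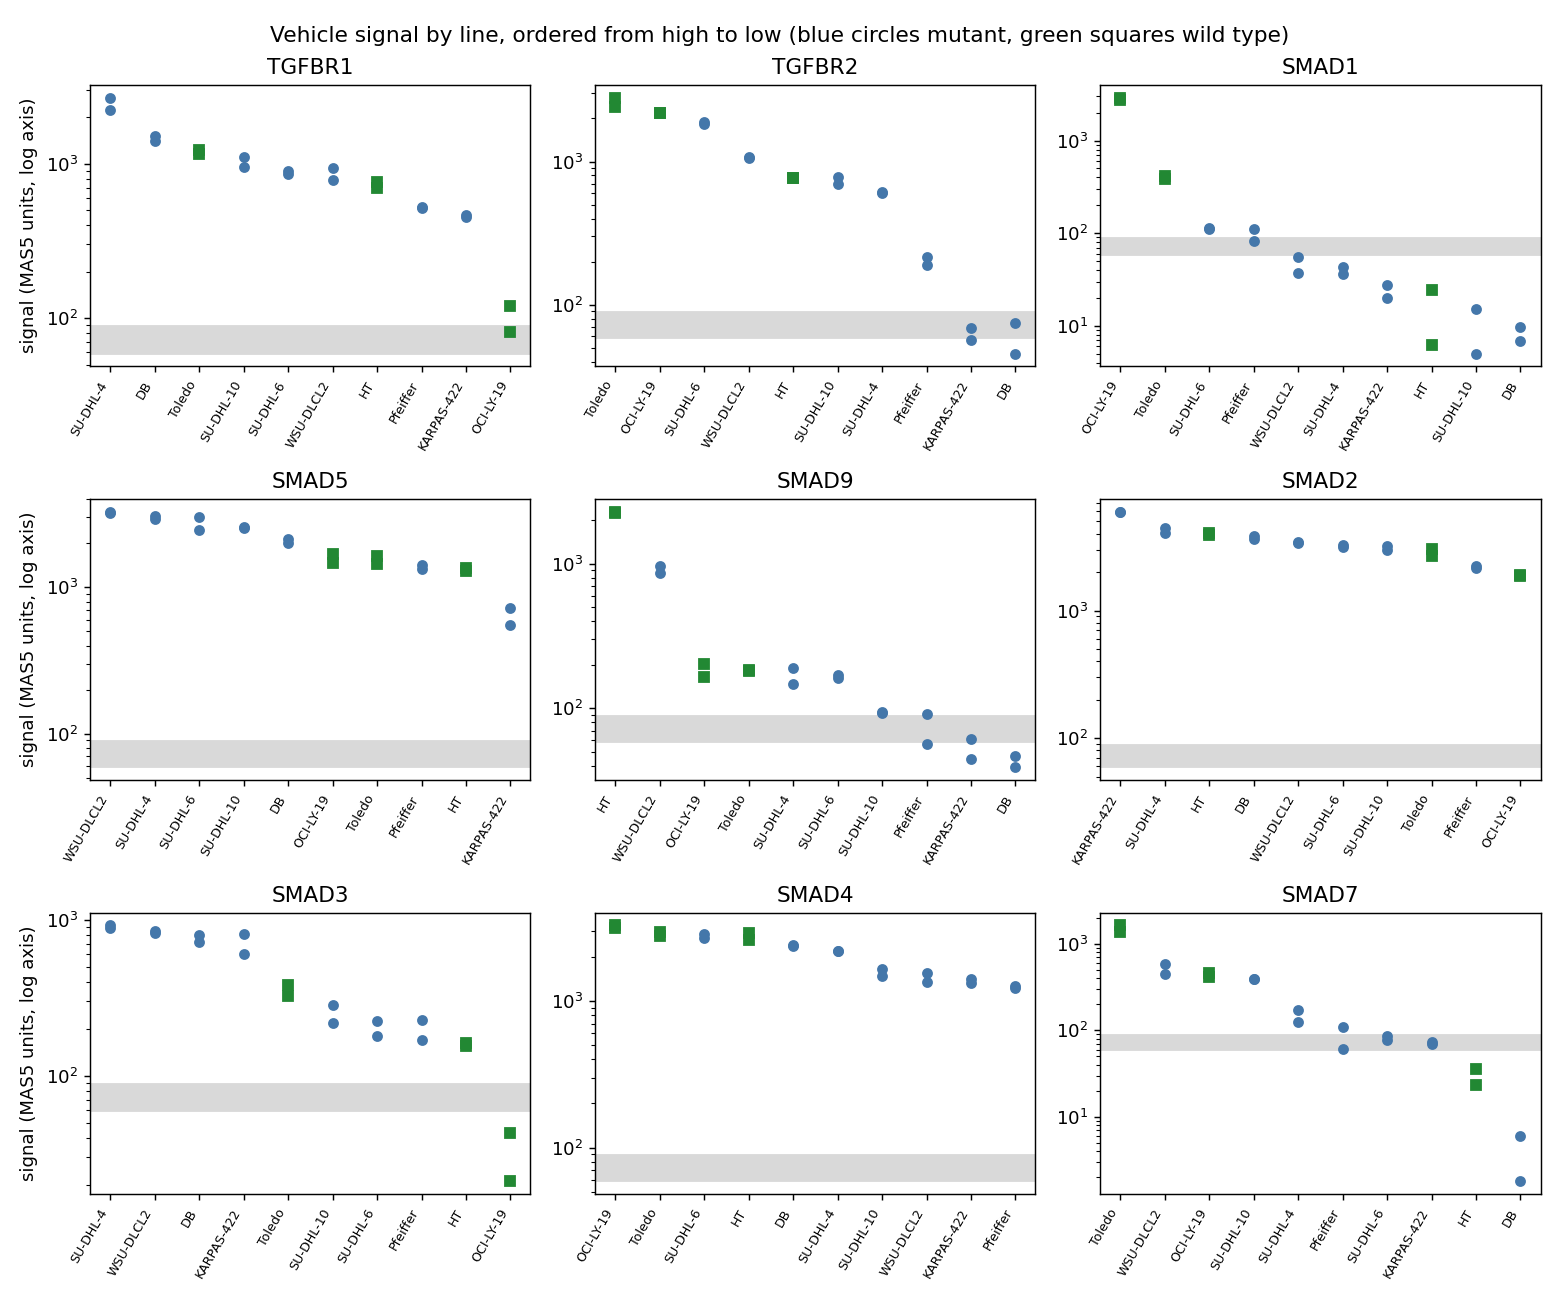
Signal of the 9 tested genes on each vehicle array, in MAS5 units on a log axis with its own range in each panel, with lines ordered from high to low; circles are EZH2-mutant lines, squares wild type lines, and the grey band spans the array medians. SMAD1 runs from 2902 down to 5.01 and SMAD7 from 1638 down to 1.80, while SMAD2, SMAD4 and SMAD5 stay above the band in every line.

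Between genotypes, with the line as the replicate, limma called 0 of 9 genes for the vehicle level (0.0526% of all genes called), and 3 of 9 had an unadjusted p under 0.05, against 7.78% of all genes. SMAD4 was lower in mutant lines by -0.72 ± 0.27 (SE, log2, 7 against 3 lines, adjusted p = 0.573, exact two-sided permutation p = 0.0417). SMAD1 was lower by -2.60 ± 1.10 (adjusted p = 0.616, exact permutation p = 0.0583) and SMAD3 higher by 1.70 ± 0.70 (adjusted p = 0.608, exact permutation p = 0.0917). The smallest p that 120 regroupings allow is 0.00833. For SMAD1 the difference rested on which wild type lines were included: HT is as low as the mutant lines, and without HT the difference was -4.30 (adjusted p = 0.0432). The labels' descriptions carry an R tag of unstated meaning, and within its 3 values the SMAD1 difference was -2.61 (R6), 0.34 (R7) and -4.45 (R8). For SMAD4 the within-tag differences were -1.12, -0.57 and -0.22.

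The response to GSK126 was called between genotypes for 0 of 9 genes and 0% of all genes by limma. At an unadjusted p under 0.05 only SMAD1 passed, 1 of 9 against 3.78% of all genes, with a mean of 1.01 ± 0.26 in mutant lines and -0.20 ± 0.40 in wild type lines. That difference was 1.20 ± 0.48 (adjusted p = 0.992, exact two-sided permutation p = 0.05 over 7 and 3 lines), and within the R tags it was 1.08, 0.99 and 2.78. For TGFBR1 the mutant mean was 0.75 ± 0.20 and the wild type mean 0.90 ± 0.31, a difference of -0.15 ± 0.37 (adjusted p = 0.992), with 0.99, -0.67 and -0.48 within R6, R7 and R8. The mutant mean itself was called against 0 for 0 of 9 genes (0.00657% of all genes); at an unadjusted p under 0.05 it passed for 3 of 9, where 25.1% of all genes did. Those were SMAD1 (adjusted p = 0.0660), TGFBR1 (adjusted p = 0.0711) and SMAD2 (-0.16 ± 0.06, adjusted p = 0.124). SMAD1 (0.90, adjusted p = 0.0385) and SMAD2 (-0.30, adjusted p = 0.0362) were called with equal medians. The wild type mean was called for 0 of 9 genes and 0% of all genes, and TGFBR1 alone had an unadjusted p under 0.05, where 3.62% of all genes did.

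Against the growth IC50, 0 of 9 genes and 0% of all genes had a called slope by limma, and at an unadjusted p under 0.05 there were 0 of 9 against 9.34% of all genes. TGFBR1 changed by -0.39 ± 0.21 for each 10-fold rise in IC50 (adjusted p = 0.573) and SMAD1 by -0.52 ± 0.35 (adjusted p = 0.651). OCI-LY-19, with an IC50 of 1019 nM, had the second largest TGFBR1 change, and Pfeiffer, with the lowest IC50, had the fifth.

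Other genes of the pathway were read from 4 lists. Of 13 further receptors of the family, 11 were on the array and 9 tested; 18 of their 90 tests rose and 0 fell (20% and 0%, against 7.55% and 5.13% of all tests), with a median change of 0.20 against 0.02 for all genes. At an unadjusted p under 0.05, 27 rose and 1 fell, and with equal medians 12 were called as risen and 1 as fallen. The activin receptor ACVR1B, a type I receptor that signals through SMAD2 and SMAD3, rose in 7 lines, by 0.94 ± 0.10 in WSU-DLCL2 (mean signal 307 to 606) and 0.92 ± 0.10 in SU-DHL-10. SU-DHL-4, where TGFBR1 stood at 0.03, had an ACVR1B rise of 0.70 (579 to 952, adjusted p = 2.84e-05). The ACVR1B calls rest largely on 1 probe set: with the mean of its probe sets 6 of the 7 were lost, and Pfeiffer stood at -0.16 (adjusted p = 0.570) and SU-DHL-4 at 0.22 (adjusted p = 0.726). ACVR1, a type I receptor for BMPs and activins, rose in 6 lines, by 0.97 ± 0.21 in SU-DHL-10, where its signal was low (24.2 to 65.0), and by 0.86 in SU-DHL-6; with equal medians 3 of these 6 calls were lost (WSU-DLCL2, KARPAS-422 and HT). BMPR2, the type II BMP receptor, rose in KARPAS-422 (1.77, 38.8 to 175), Pfeiffer (1.37, 63.7 to 183) and HT (0.93, 88.2 to 183). The HT call was lost with the mean of all BMPR2 probe sets (0.31, adjusted p = 0.458). BMPR1B rose in Pfeiffer (1.92, 29.1 to 160). ACVR1C, ACVR2A, ACVR2B and ENG were called in 0 lines, and most of the 18 rises were those of ACVR1B and ACVR1.

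Of 31 ligand genes, 27 were on the array and 19 tested, and 7 of 190 tests rose and 5 fell (3.68% and 2.63%, against 7.55% and 5.13% of all tests). INHBE, an inhibin beta subunit, fell in WSU-DLCL2 (-3.04 ± 0.30, mean signal 1660 to 187), SU-DHL-10 (-2.16, 224 to 36.6) and KARPAS-422 (-1.44, 76.4 to 22.7). SMAD2 fell in the same lines with its chosen probe set, and a link between these genes was not tested. BMP7 rose in SU-DHL-10 (2.31 ± 0.28, 153 to 830), WSU-DLCL2 (1.95, 75.1 to 341) and HT (1.00, 4.92 to 27.7). The HT values are near the floor, and the call was lost with a pseudocount of 64 (0.41, adjusted p = 0.101) and with the mean of all BMP7 probe sets (0.25, adjusted p = 0.498). TGFB1, which encodes the main TGF-beta ligand of lymphocytes, fell in KARPAS-422 (-0.54 ± 0.10, 2180 to 1500) and SU-DHL-10 (-0.37). With the mean of all TGFB1 probe sets neither line was called, at -0.27 (adjusted p = 0.606) and 0.39 (adjusted p = 0.446). BMP3 rose in WSU-DLCL2 (1.28, 18.3 to 66.1). Of 29 modulators, which include ubiquitin ligases, ligand-binding proteins and co-repressors, 27 were tested and 19 of 270 tests rose and 9 fell (7.04% and 3.33%), where 7.55% and 5.13% of all tests did. The ubiquitin ligase SMURF2 rose in 4 lines, most in KARPAS-422 (0.64 ± 0.10) and WSU-DLCL2 (0.59); with equal medians the SU-DHL-10 (0.18, adjusted p = 0.215) and SU-DHL-4 (0.38, adjusted p = 0.0838) calls were lost. NEDD4L, a ubiquitin ligase that acts on activated SMAD2 and SMAD3, rose in SU-DHL-10 (1.40 ± 0.23) and KARPAS-422 (1.23). LTBP1, which tethers latent TGF-beta, rose in Pfeiffer (0.90) and WSU-DLCL2 (0.37) and fell in SU-DHL-10 (-0.53). The WSU-DLCL2 call was lost with equal medians (0.12, adjusted p = 0.585) and with the mean of all LTBP1 probe sets (0.30, adjusted p = 0.112). FST, an activin antagonist, rose in Pfeiffer (1.41 ± 0.45) and fell in KARPAS-422 (-1.81 ± 0.45). The Pfeiffer call was lost with a pseudocount of 1 (adjusted p = 0.129), and KARPAS-422 stood at -0.55 (adjusted p = 0.117) with the mean of all FST probe sets.

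Of 20 genes known to respond to SMADs, 17 were tested, and 25 of 170 tests rose and 8 fell (14.7% and 4.71%), against 7.55% and 5.13% of all tests. ID1, ID2 and ID3, inhibitors of helix-loop-helix transcription factors and classic BMP targets, made up 18 of the 25 rises. ID4, of the same family, rose in 0 lines and fell in 1, with values from -1.29 to 0.54. None of the other targets tested rose in more than 2 lines, so the share of the list rests mostly on ID1, ID2 and ID3. ID1 rose in 7 lines, most in SU-DHL-10 (2.70 ± 0.20, mean signal 7.20 to 144) and WSU-DLCL2 (2.14, 232 to 1080). ID2 rose in 6, most in KARPAS-422 (2.88 ± 0.17, 68.4 to 571) and SU-DHL-10 (1.59, 1230 to 3740). Its calls in Pfeiffer (0.47) and SU-DHL-4 (0.66) were lost with equal medians (0.315, adjusted p = 0.211, and 0.64, adjusted p = 0.0618) and with the mean of its probe sets (0.31, adjusted p = 0.0681, and 0.23, adjusted p = 0.480). In HT ID2 was at -0.50 (adjusted p = 0.0660), and was called as fallen with equal medians (-0.56, adjusted p = 0.0478) and with that mean (-0.71, adjusted p = 2.86e-04). ID3 rose in 5, most in WSU-DLCL2 (1.62 ± 0.10, 1610 to 4990) and Pfeiffer (1.53, 221 to 667). SU-DHL-6, where SMAD1 rose most, had ID1 at 1.24 (704 to 1690) and ID2 at 0.88 among the rises and ID3 at 0.23 (adjusted p = 0.174). OCI-LY-19, with the highest SMAD1 signal in both treatments, had ID1, ID2 and ID3 at 0.00, 0.06 and -0.05 under GSK126. Its mean vehicle signals of ID2 (12000) and ID3 (16800) were the highest of all lines. The next were Pfeiffer for ID2 (8050) and Toledo for ID3 (5470). Its vehicle ID1 was low, at 90.9 against 1180 in HT, the highest line. A link between SMAD1 and the ID genes was not tested. JUNB fell in KARPAS-422 (-0.96 ± 0.19), WSU-DLCL2 (-0.89), HT (-0.63) and SU-DHL-10 (-0.54). The ID1 call in KARPAS-422 (0.59) was lost with a pseudocount of 64 (0.27, adjusted p = 0.143). Among the genes named from these lists, leaving out at least 1 single array ended the calls of ACVR1 in HT, KARPAS-422, SU-DHL-4, SU-DHL-6 and WSU-DLCL2, ACVR1B in KARPAS-422 and Pfeiffer, and BMPR2 in HT. It also ended those of BMP3 and LTBP1 in WSU-DLCL2, BMP7 in HT, INHBE in KARPAS-422, TGFB1 in SU-DHL-10, SMURF2 in SU-DHL-10 and SU-DHL-4, and FST in both its lines. Among targets it ended those of ID1 in DB and KARPAS-422, ID2 in Pfeiffer and SU-DHL-4, ID3 in DB, and JUNB in HT and SU-DHL-10.

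**Figure D4:**
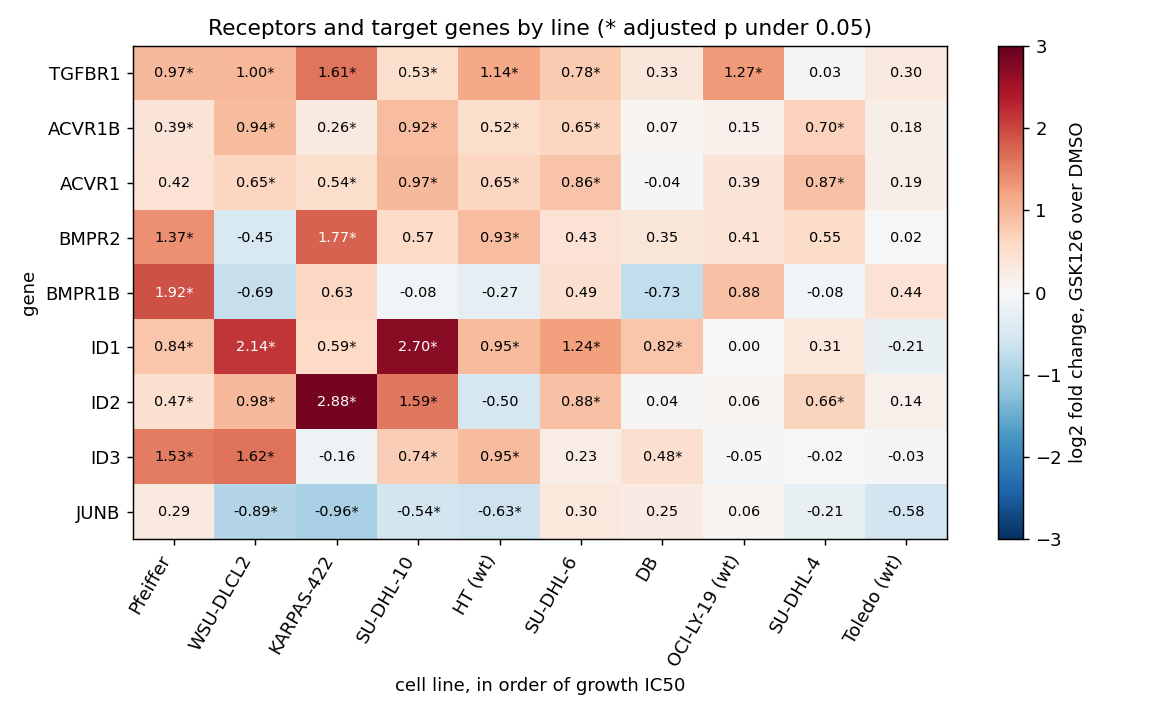
Log2 fold change under GSK126 of TGFBR1, 4 other receptors and 4 target genes (rows) in the 10 lines (columns, in order of growth IC50); red is higher and blue lower under GSK126, numbers are the values, and an asterisk marks an adjusted p under 0.05. Asterisks lie mainly on the left, but ACVR1B, ACVR1 and ID2 also have one in SU-DHL-4 and TGFBR1 has one in OCI-LY-19. BMPR1B has an asterisk in Pfeiffer alone and is at -0.69 in WSU-DLCL2. JUNB is blue in 4 called lines, and Toledo has no asterisk.

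The genes whose response profile over the 10 lines was most like that of TGFBR1 were SPATA6L (Pearson's r = 0.94), COPS7A (0.92) and CXXC5 (0.90). SPATA6L changed by 1.55 in KARPAS-422, 1.02 in WSU-DLCL2 and HT and 0.95 in OCI-LY-19, and by -0.58 in DB, -0.37 in SU-DHL-4 and -0.80 in Toledo. For SMAD1 they were H2AC17 (0.93), MINAR1 (0.92) and PKLR (0.91), each with its largest value in SU-DHL-6 (1.40, 1.21 and 0.70). For SMAD2 they were FBXO4 (0.96), COG5 (0.95) and ZNF460 (0.93). FBXO4 changed by -0.46, -0.45 and -0.37 in WSU-DLCL2, KARPAS-422 and SU-DHL-10. In vehicle level, the nearest to SMAD1 were HPGD (0.97), GLDC (0.96) and TSPAN5 (0.96), and HPGD had a mean signal of 2590 in OCI-LY-19 against 9.17 in SU-DHL-4. SMAD7 was nearest to ZEB2 (0.94), CARHSP1 (0.91) and POU2AF2 (0.91), and SMAD9 to ZFP3 (0.95), IL18 (0.92) and TLK2 (0.92). ZEB2 encodes a repressor known to bind SMADs. These correlations are descriptions over 10 lines, picked as the best among all genes tested, and the values of 1 line share its arrays and their scaling.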

How the data were processed

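RNA from 10 lymphoma lines, with 2 arrays for each line and treatment (20 groups, from the labels), was measured on 40 one-colour arrays of 54675 probe sets. The deposited values are log2 signals, made with MAS5 per the submitters' processing notes; no version is given in the sources used here. Brought back to linear, each array had a mean of 500 after 2% of probe sets was trimmed at either end. Log values of dim MAS5 signals are noisy, and precision is limited by how few arrays each group has.

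Values were analysed as log2(signal + 17.72), the pseudocount being the median over arrays of the 25th percentile, so that changes of dim genes are understated. Symbols came from the platform annotation, which can be old: 41091 probe sets had 1 symbol, 1801 several, 11721 none and 62 were controls; 41037 gene IDs matched a RefSeq gene table of GRCh38.p14, and 0 symbols were updated. For each gene the single-symbol probe set of highest mean log2 value was taken, and the gene was tested if that set lay above the array median on at least 2 arrays. SMAD1 and SMAD2 would have another probe set by the linear mean.

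limma 3.58.1 in R 4.3.3 fitted 1 mean for each of the 20 groups with moderated variances and an intensity trend (20 residual and 6.98 prior degrees of freedom). Treated and vehicle arrays were compared line by line, and an interaction F test compared the lines' responses. Across lines, each line gave 1 value, and limma estimated the genotype means, how they differ, and the slope per 10-fold change in growth IC50. Tests were two-sided, with Benjamini-Hochberg adjustment over 15211 genes and calls at an adjusted p under 0.05. Errors after ± are standard errors. The tests were checked on simulated data. The replicate numbers in the titles did not pair arrays: deviations of arrays with the same number in a line correlated at -0.04 to 0.07.

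Members and lists were chosen with earlier results of these data known. Besides the members, the genes named were, of each of 4 pathway lists, the 4 called in the most lines (ties by the larger change), and the 3 genes most correlated over lines with each of 3 members, in response (members called in the most lines) and in vehicle level (members with the widest range). Individual probe sets were tested in a fit of all 30197 probe sets that passed the filter. Alternatives covered the pseudocount, scaling, filter, choice of probe set, replicate block, trend, single lines or arrays left out, and the R tag.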

Additional observations from a re-analysis of the deposited data

Results flagged for a closer look

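Among the 7 mutant lines, SMAD9 under vehicle was far higher in WSU-DLCL2 than in the others: its mean was 9.87 on the log2(signal + 17.72) scale, the next line, SU-DHL-4, was at 7.53, and the gap made up 0.59 of the whole range. This was 1 of 18 such groups of 7 lines looked at, and about 1 in 20 groups shows such a gap by chance.

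The change under GSK126 differed between lines by the interaction test of the limma fit for 7 genes. With the chosen probe sets the adjusted p was 9.91e-08 for TGFBR1, where 10 of 10 lines were positive with different sizes, and 7.73e-05 for SMAD1, positive in 7 lines. It was 0.00284 for SMAD2, 0.00330 for TGFBR2, 0.00566 for SMAD5, 0.00600 for SMAD7 and 0.00797 for SMAD4.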

How the results depend on the processing

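With 2 arrays per group, precision is limited. SMAD1 in 6 lines, SMAD7 in DB and HT, SMAD9 in DB and KARPAS-422 and SMAD3 in OCI-LY-19 lay below the array median on every array. With arrays brought to equal medians, over all lines 11 member tests rose (17 as deposited) and 11 fell (5), 8 ligand tests fell (5), 1 receptor test fell (0), 10 modulator tests rose (19) and 21 fell (9), and 2 members were called for the mutant mean (0). Quantile normalization gave 4 ligand rises (7) and 8 falls (5). A pseudocount of 64 gave 3 called members in HT (1). Testing only genes above the array median on 20 arrays called 1 member for the mutant mean, TGFBR1 (adjusted p = 0.0475). The mean of all probe sets called 2 members in SU-DHL-10 (4), 2 in HT (1) and 0 in OCI-LY-19 (1). It also turned TGFB1 in SU-DHL-10 to 0.39 (adjusted p = 0.446, from -0.37) and ACVR1B in Pfeiffer to -0.16 (adjusted p = 0.570, from 0.39). Lines fitted alone gave 2 called members in KARPAS-422 (4), 2 in HT (1) and 0 in OCI-LY-19 (1), and 10 receptor rises (18) with 1 fall (0). The cause of these moves was not tested.

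The replicate block, for numbers that did not pair the arrays, gave 2 called members in SU-DHL-10 (4), with SMAD1 at an adjusted p of 0.0794 and SMAD3 at 0.0510; over all lines it gave 15 rises (17) and 5 falls (5).

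With each array left out in turn, called members numbered 4 to 5 in Pfeiffer, 2 to 3 in WSU-DLCL2, 2 to 4 in KARPAS-422, 3 to 4 in SU-DHL-10, 2 to 3 in SU-DHL-6, 1 in HT, 1 to 2 in OCI-LY-19 and 0 in DB, SU-DHL-4 and Toledo. Member tests rose 15 to 19 and fell 4 to 7 times, and ligand falls numbered 4 to 8. The second WSU-DLCL2 array of either treatment gave its 2, the first KARPAS-422 vehicle array its 2, the first treated OCI-LY-19 array its 2 and the second treated SU-DHL-6 array the 8. With each line left out, 0 to 1 members differed in vehicle level between genotypes, 1 being SMAD1 without HT, and the other tests across lines called 0. An alternative chosen after seeing the data left out the 11 gene and line pairs in which every array lay below the array median, and 16 rises (17) and 5 falls (5) were left.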
